A study of Mus musculus with 21 samples.

Results

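Sorted intestinal stem cells were compared between vitamin D receptor knockout mice and mice fed extra vitamin D. AIN_VdrKO held mice of the Lgr5EGFPcre-ERT2 line with the genotype VdrKO, a knockout of the vitamin D receptor, fed the purified diet AIN76A. NWD1VitD held Lgr5EGFPcre-ERT2 mice, with no Vdr knockout in their labels, fed NWD1 with added vitamin D, labelled as 2.3 IU/g body weight. All mice carried the Lgr5EGFPcre-ERT2 allele, ate their diet from weaning and were 3 months old. The 3 AIN_VdrKO libraries came from males, and those of NWD1VitD from 2 males and 1 female. The labels number the libraries as replicates and do not say how animals map to them, so p-values measure spread between libraries. This spread was estimated within groups over all 21 libraries of the study, with a term for sex. All genes of the count table other than the ERCC spike-in RNAs were members of the comparison: 16050 of 37310 genes had enough counts to test, in 6 of the 21 libraries of the study. The other groups, 3 libraries each, were AIN, NWD1, NWD2, NWD1Ca and AINlowVitD. AINlowVitD was labelled with vitamin D at 0.11 IU/g and NWD1Ca with calcium at 7.0 mg/g. All NWD1Ca libraries came from females, and AIN, NWD1, NWD2 and AINlowVitD each held both sexes. Genotype, base diet and added vitamin D differ together between both groups, so their effects cannot be told apart in this contrast. The labels used here do not name the deleted part of Vdr, the cells in which it was deleted or the make-up of NWD1. RNA came from cells with the brightest Lgr5-EGFP signal, collected in bulk, so each value is an average over sorted cells of a library.

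The vitamin D receptor is a nuclear receptor. Bound to the hormone 1,25-dihydroxyvitamin D, it pairs with RXR, sits on response elements in DNA and switches on target genes. In the intestine its best known targets move calcium across the epithelium: the channel Trpv6 lets calcium in at the brush border, the binding protein S100g (calbindin-D9k) carries it through the cell, and the pump Atp2b1 moves it out at the base. Cyp24a1, another target, degrades the hormone. Lgr5 marks the dividing stem cells at the crypt base, which lie among Paneth cells that secrete antimicrobial defensins.

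The 6 libraries differed in make-up as well as in group. Gene counts ran from 22562419 to 115435120 in AIN_VdrKO and from 28652263 to 35248316 in NWD1VitD. The share of mitochondrial ribosomal RNA was 1.38% to 2.80% in AIN_VdrKO and 3.53% to 5.07% in NWD1VitD, with no overlap (exact permutation test, two-sided, p = 0.1, the smallest that 3 against 3 libraries can give). On the first principal component of all 21 libraries, which held 43.9% of the variance, the AIN_VdrKO libraries lay at 43.8, 3.8 and -21.9 and the NWD1VitD libraries between 71.2 and 79.0. All 9 libraries of AIN, NWD1 and NWD2 lay between -104.3 and -38.6, and all 9 of NWD1Ca, AINlowVitD and NWD1VitD between 71.2 and 79.2, with AIN_VdrKO between these sets. Both sets mix base diets, the labels name no batch, and a difference between AIN_VdrKO and NWD1VitD cannot be told apart from this division of the libraries. Of 78 tested spike-in RNAs, which are added to the samples and carry no biology, 42 passed the test between the groups (53.8%), 22 upward and 20 downward, with a median absolute log2 fold change of 0.72. The part of these library differences in the results below was not tested, other than by the values given beside each group of genes.

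Of the 16050 genes, 1307 passed the test (8.14%), 689 higher (4.29%) and 618 lower (3.85%) in AIN_VdrKO. The test was edgeR's quasi-likelihood F test with Benjamini-Hochberg adjustment at 0.05. Every fold change below is a fitted log2 value of AIN_VdrKO over NWD1VitD with its standard error (SE). Every level is in CPM, the count scaled to a common library size after TMM normalisation, and values by library stand in the order of replicates 1, 2 and 3. The median over all tested genes was 0.16, and in 4990 genes (31.1%) the 3 and 3 libraries did not overlap. The split between rises and falls depended on the scaling: 52.7% of called genes were higher with TMM, 41% with DESeq2, 34.2% with upper quartile scaling and 94.7% on log2(TPM + 1), where the fold changes shifted upward by a median of 0.74. With the 6 libraries fitted alone 6 genes were higher and 19 lower. Higher and lower genes numbered 1781 and 1245 without AIN_VdrKO 1, 401 and 310 without AIN_VdrKO 2, 71 and 123 without AIN_VdrKO 3, 78 and 244 without NWD1VitD 2, and 43 and 172 without NWD1VitD 3.

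**Figure D1:**
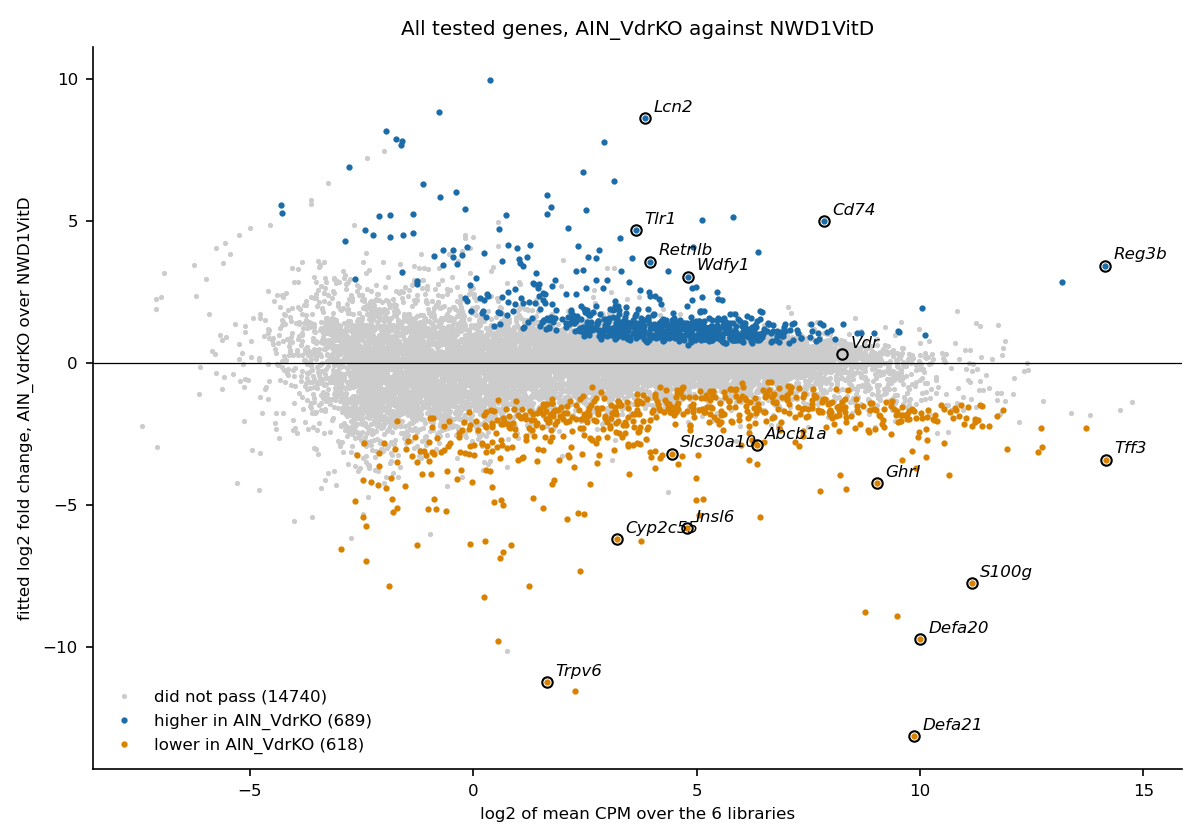
Fitted log2 fold change of AIN_VdrKO over NWD1VitD (vertical axis) against the log2 of the mean CPM over the 6 libraries (horizontal axis), 1 point per tested gene with a count in them; blue and orange points passed the test, and circles mark genes described in the text. Defa21, Trpv6, Defa20 and S100g lie far below 0, Lcn2 far above, and Vdr lies among the genes that did not pass.

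Vdr transcripts were counted in the AIN_VdrKO libraries as in the others. The level of Vdr was 297, 481.5 and 246.6 CPM in AIN_VdrKO and 304.9, 261.5 and 241.2 CPM in NWD1VitD, and the groups overlapped. The log2 fold change was 0.31 (SE 0.36, edgeR adjusted p = 0.597). A count over the whole gene does not check a deletion whose position is not known, so these data do not test the genotype label. Among 15 tested genes of the receptor, its RXR partners, coactivators, corepressors and vitamin D enzymes, 0 rose and 0 fell by edgeR (median 0.20, against 0.16 over all genes).

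S100g and Trpv6 fell in AIN_VdrKO, and the third calcium gene, Atp2b1, did not pass the test. S100g stood at 46, 9.48 and 4.44 CPM in AIN_VdrKO and at 1677, 2961 and 9052 CPM in NWD1VitD. Every NWD1VitD library lay above every other library of the study for this gene, and the fold change was -7.76 (SE 1.11, edgeR adjusted p = 0.000771). Trpv6 had 0 counts in all 3 AIN_VdrKO libraries and 27, 29 and 383 counts in those of NWD1VitD. Over the pooled libraries it was at least 360-fold lower in AIN_VdrKO, taking 3 counts over the group as its floor (edgeR adjusted p = 0.00095). NWD1VitD 3 held most of these counts, and without it the bound was at least 65.4-fold. The pump Atp2b1 was at 102.2, 129.5 and 102.4 CPM against 141.4, 182 and 239.7 CPM. Its groups did not overlap but it did not pass the test (log2 fold change -0.70, SE 0.25, edgeR adjusted p = 0.0827). It passed with DESeq2 (log2 fold change -0.82, adjusted p = 0.0172), was at -0.41 without NWD1VitD 3, and turned to 0.25 on log2(TPM + 1). Cyp24a1 was too low to test, with 5 counts in 1 AIN_VdrKO library, 15 in NWD1VitD 3 and 0 in the other 4. In bulk RNA, fewer cells that express a gene and less RNA per cell cannot be told apart. Neither S100g (adjusted p = 0.072) nor Trpv6 passed when edgeR was fitted to the 6 libraries alone, and the S100g fold change was -9.29 without AIN_VdrKO 1 and -6.44 without NWD1VitD 3. Of 20 tested genes of calcium, phosphate and magnesium transport, S100g and Trpv6 were the 2 that fell, and 0 rose by edgeR (median -0.24). The called share of this list, 10%, was near the 8.14% of all tested genes.

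The promoters of both calcium genes are shown because these genes fell furthest among the receptor's targets. Each line gives the 250 bases before the start of the gene, from RefSeq on GRCm38.p6, 5′ to 3′ on the gene's strand: chrX:162964600-162964849, minus strand, for S100g and chr6:41636406-41636655, minus strand, for Trpv6. The counts were made on mm9, and the windows were read for their letters only. Capitals mark AGGTCA, the core motif bound by nuclear receptors of this class, or TGACCT, the same motif on the other strand.
S100g: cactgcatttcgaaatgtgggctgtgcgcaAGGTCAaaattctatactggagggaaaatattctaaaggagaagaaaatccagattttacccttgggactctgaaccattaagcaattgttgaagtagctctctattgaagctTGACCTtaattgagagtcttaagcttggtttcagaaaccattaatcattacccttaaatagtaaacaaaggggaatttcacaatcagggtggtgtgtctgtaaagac
Trpv6: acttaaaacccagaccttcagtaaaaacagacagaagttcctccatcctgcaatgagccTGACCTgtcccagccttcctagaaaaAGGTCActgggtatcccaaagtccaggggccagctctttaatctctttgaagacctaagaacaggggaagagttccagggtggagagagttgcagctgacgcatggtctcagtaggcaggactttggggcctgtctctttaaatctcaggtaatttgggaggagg
Each window held 2 core motifs, 1 in each direction. Of all 32817 promoter windows of this length, 4604 (14%) held at least 1, and so did the windows of 4 of 23 listed receptor targets. Windows with 2 motifs in opposite directions were not counted, so this share is no background for that arrangement. The receptor's usual element is a direct repeat of such motifs with 3 bases between. With AGGTCA or AGTTCA or GGGTCA or GGTTCA at either place, on both strands, 13 of the 32817 windows (0.0396%) held this repeat, and none of the 23 target genes did within this window. A match is a description of letters and no match says nothing of binding elsewhere.

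Other receptor targets moved both ways. Of 26 tested targets, 5 fell and 2 rose (median -0.49, against 0.16 over all genes). Slc30a10, which exports manganese from cells, fell to 3.55, 6.31 and 2.35 CPM against 14.2, 27.6 and 76.5 CPM. All AIN_VdrKO libraries were below all of NWD1VitD (log2 fold change -3.20, SE 0.81, edgeR adjusted p = 0.025), but without NWD1VitD 3 the change was -1.96 and did not pass (adjusted p = 0.213). Abcb1a, the drug efflux pump P-glycoprotein, was at 14.3, 19.4 and 18.4 CPM in AIN_VdrKO and at 121, 155 and 160 CPM in NWD1VitD (log2 fold change -2.91, SE 0.53, edgeR adjusted p = 0.00495). Slc37a2, a sugar phosphate transporter, fell by 3.93 on the log2 scale (edgeR adjusted p = 0.0319). The targets that rose were Cd14, the coreceptor for bacterial lipopolysaccharide (log2 fold change 2.35, edgeR adjusted p = 0.00113), and Cldn2, a claudin that forms cation pores (1.15, edgeR adjusted p = 0.0465). The count of falls was 3 without NWD1VitD 3 and 3 without AIN_VdrKO 3. Cldn2 did not pass without AIN_VdrKO 3 or any 1 NWD1VitD library. Nor did it pass with upper quartile scaling or with the mitochondrial ribosomal RNA share as a covariate. Cd14 passed without any 1 of the 6 libraries, but not with the 6 libraries fitted alone.

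**Figure D2:**
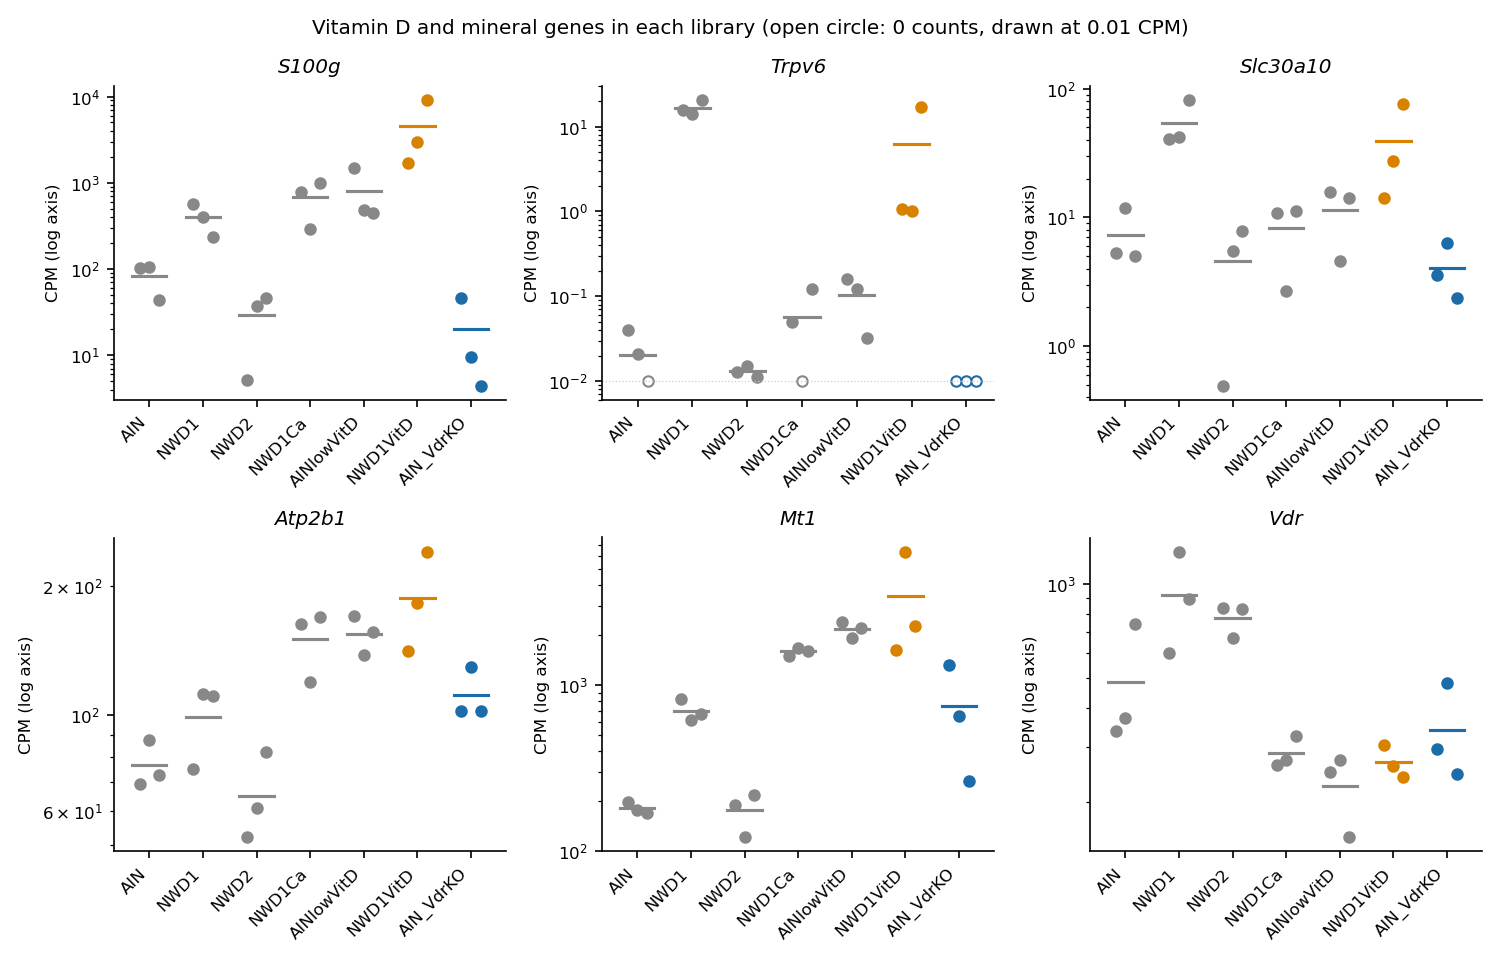
CPM on a log axis of 6 vitamin D and mineral genes in each of the 21 libraries, by group (points: libraries, bars: group means, open circles: 0 counts drawn at 0.01 CPM; NWD1VitD orange, AIN_VdrKO blue, the other groups grey). S100g is highest in NWD1VitD, Trpv6 has counts above 1 CPM in NWD1 and NWD1VitD only, and Vdr in AIN_VdrKO lies within the range of the other groups.

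Side by side with the other groups, the calcium genes did not follow 1 order. The mean of S100g was 4563 CPM in NWD1VitD, 807 in AINlowVitD, 690 in NWD1Ca, 403 in NWD1, 83.5 in AIN, 29.4 in NWD2 and 20 in AIN_VdrKO. The libraries of NWD2 and AIN_VdrKO overlapped, as did those of NWD1, NWD1Ca and AINlowVitD. Against AIN, the group on the same base diet with no Vdr knockout in its labels, S100g in AIN_VdrKO was at -1.75 on the log2 scale and did not pass (edgeR adjusted p = 0.253). Trpv6 was at 13.9 to 20.6 CPM in the 3 NWD1 libraries, which had no vitamin D added, and at or under 0.160 CPM in every library of AIN, NWD2, NWD1Ca and AINlowVitD. Slc30a10 was likewise as high in NWD1, at 40.5, 41.9 and 81.3 CPM, as in NWD1VitD.

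Metal-binding and zinc genes gave a mixed picture. Of 20 tested metallothioneins and zinc transporters, 3 fell and 1 rose (median 0.08). Mt1, a metallothionein that binds zinc and copper, was at 1330, 649 and 262 CPM in AIN_VdrKO and at 1627, 6391 and 2288 CPM in NWD1VitD (log2 fold change -1.93, SE 0.49, edgeR adjusted p = 0.0248). Mt2 was at 288, 94.1 and 5.31 CPM against 162, 790 and 334 CPM, overlapped and did not pass (-1.25, SE 0.79, edgeR adjusted p = 0.314). Slc39a4, the main zinc importer of the gut, was at 75.8, 120 and 346 CPM against 68.6 to 73.1 CPM (1.36, SE 0.41, edgeR adjusted p = 0.0479). Mt1 lost its call without any 1 of AIN_VdrKO 2, AIN_VdrKO 3, NWD1VitD 2 and NWD1VitD 3, as did Slc39a4 without AIN_VdrKO 3 or any NWD1VitD library. Metallothioneins are near copies of each other, so single values are uncertain.

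A few drug-metabolising and bile acid genes fell in AIN_VdrKO. Of 27 tested xenobiotic cytochromes, esterases and transporters, 5 fell and 0 rose (median -0.67). Cyp2c55, a cytochrome P450, was at 0.0808, 0.348 and 0.327 CPM in AIN_VdrKO and at 6.13, 12.7 and 36.6 CPM in NWD1VitD (log2 fold change -6.21, SE 0.89, edgeR adjusted p = 0.000793). The AIN_VdrKO libraries were below all 18 others for Cyp2c55 and for its relative Cyp2c65 (-2.05, edgeR adjusted p = 0.0112). Cyp2b10 (-4.82), Abcb1a and the carboxylesterase Ces2a (-1.72) made up the rest. Of 12 bile acid genes, 2 fell: Fabp6, the ileal bile acid binding protein, at 22.2, 40.5 and 5.98 CPM against 77.6, 838 and 955 CPM (-4.46, SE 0.97, edgeR adjusted p = 0.0133), and Ostb, a subunit of the basolateral bile acid exporter (-2.07, edgeR adjusted p = 0.0438). The xenobiotic falls numbered 3 without AIN_VdrKO 3 or NWD1VitD 2 and 2 without NWD1VitD 3. The bile acid falls numbered 1 without AIN_VdrKO 1, AIN_VdrKO 2 or NWD1VitD 2, and 0 by edgeR without AIN_VdrKO 3 or NWD1VitD 3. Cyp2c genes are near copies of each other.

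Several genes of epithelial defence rose in AIN_VdrKO. Of 20 tested antimicrobial and Reg lectin genes, 7 rose and 1 fell (median 1.15, against 0.16 over all genes). Lcn2, which withholds iron from bacteria, was at 37.9, 6.87 and 41.7 CPM in AIN_VdrKO and at 0.0791, 0 and 0.132 CPM in NWD1VitD. It was near 0 in all 18 libraries outside AIN_VdrKO, and the fold change was 8.61 (SE 1.22, edgeR adjusted p = 0.00075). Reg3b, a lectin that kills bacteria, was at 44250, 34030 and 20420 CPM against 1181, 2377 and 6256 CPM (3.42, SE 0.88, edgeR adjusted p = 0.0261). Its close relative Reg3g stood at 19790, 17970 and 10650 CPM against 906, 1357 and 4676 CPM (2.84, SE 0.86, edgeR adjusted p = 0.0483). Retnlb, an antibacterial protein of goblet cells, was at 36.6, 13.6 and 36.1 CPM against 2.13, 1.90 and 3.26 CPM (3.56, SE 0.65, edgeR adjusted p = 0.00495). In these 4 genes and in Cd14 every AIN_VdrKO library lay above all 18 others.

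The remaining rises of that list were Duoxa2, which matures the hydrogen peroxide producing dual oxidase (2.92, edgeR adjusted p = 0.0328), and Tlr2, a receptor for bacterial lipopeptides (2.43, edgeR adjusted p = 0.0243). Tlr1, the partner of Tlr2 and no member of the list, was at 16.8, 22.4 and 33 CPM against 1.82, 0.527 and 0.572 CPM (4.67, SE 0.49, edgeR adjusted p = 3.94e-05). Reg3a, another Reg lectin, fell by 2.27 on the log2 scale (edgeR adjusted p = 0.035). Lcn2 and Tlr1 passed under every alternative that tested them. The list's count of rises was 3 without AIN_VdrKO 3, 3 without NWD1VitD 1, 3 without NWD1VitD 2, 4 without NWD1VitD 3, and 3 with the mitochondrial ribosomal RNA share as a covariate. Reg3b did not pass with that covariate (edgeR adjusted p = 0.0529), nor without AIN_VdrKO 3 (0.0667), NWD1VitD 1 (0.0702) or NWD1VitD 2 (0.104). Reg3g passed in 8 of 21 alternatives, and neither with that covariate nor without any 1 of the 6 libraries. Reg3 genes are near copies of each other.

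**Figure D3:**
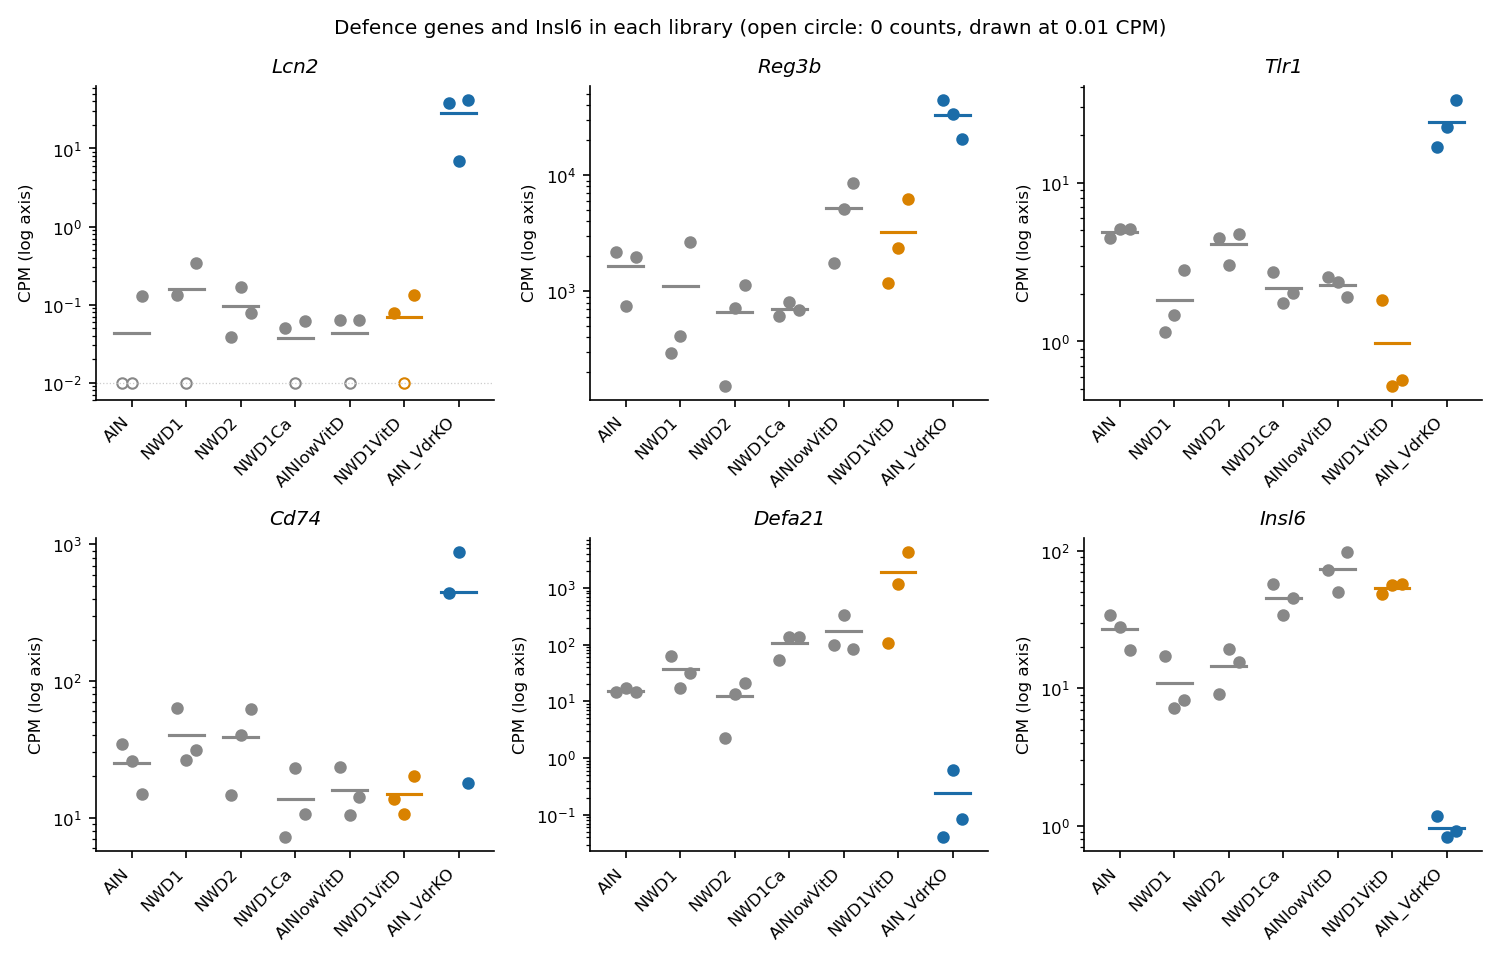
CPM on a log axis of 5 defence genes and Insl6 in each of the 21 libraries, by group (points: libraries, bars: group means, open circles: 0 counts drawn at 0.01 CPM; NWD1VitD orange, AIN_VdrKO blue, the other groups grey). Lcn2, Reg3b and Tlr1 in AIN_VdrKO lie above all other libraries and Defa21 and Insl6 below them, while Cd74 is high in AIN_VdrKO 1 and 2 and not in AIN_VdrKO 3.

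MHC class II genes rose, unevenly among the AIN_VdrKO libraries. Of 10 tested MHC class II genes, whose products show peptides to helper T cells, 7 rose and 0 fell (median 3.56). Over all tested genes 4.29% were higher and 3.85% lower. In 4 of the 10 the libraries did not overlap, beside 31.1% of all tested genes. Summed over the list, levels were 1090, 1947 and 292.1 CPM in AIN_VdrKO and 415.1, 417.7 and 393 CPM in NWD1VitD. AIN_VdrKO 3 thus lay below every NWD1VitD library in this sum. Cd74, the class II invariant chain, was at 440 and 883 CPM in AIN_VdrKO 1 and 2 and at 18 CPM in AIN_VdrKO 3, against 13.6, 10.6 and 20.1 CPM in NWD1VitD. AIN_VdrKO 3 therefore lay within the NWD1VitD range (log2 fold change 4.99, SE 0.93, edgeR adjusted p = 0.00537). H2-Eb1, a class II beta chain, was at 54.1, 110 and 6.98 CPM against 2.21, 2.95 and 5.19 CPM (4.08, SE 0.75, edgeR adjusted p = 0.00495). H2-DMa, which helps load peptides, showed the same order of libraries, at 36.4, 66.5 and 8.24 CPM against 3.37 to 4.35 CPM (3.24, SE 0.57, edgeR adjusted p = 0.00356). H2-DMb1 (4.38), H2-Aa (5.01), H2-Ab1 (3.89) and the class II transactivator Ciita (2.76) completed the list. Between 5 and 8 members rose under every alternative other than the fit of the 6 libraries alone, where 0 passed by edgeR.

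Class II is best known from B cells, dendritic cells and macrophages, so markers of leukocytes were read beside it. The summed level of the leukocyte list was 38.4, 47.5 and 23.4 CPM in AIN_VdrKO and 19.0, 35.8 and 26.8 CPM in NWD1VitD, and the groups overlapped. Of 21 tested leukocyte markers 1 rose, Itgae (2.2, edgeR adjusted p = 0.0377), an integrin of intraepithelial lymphocytes (median of the list 1.13). Of these markers 16 had a positive and 5 a negative fold change. Ptprc, the general leukocyte marker, was among the negative ones, at -0.76 on the log2 scale (edgeR adjusted p = 0.524). AIN_VdrKO 1 and 2, the libraries with high Cd74, were also those with the higher leukocyte sums, and the part of leukocytes in the class II values was not tested. Of 27 MHC class I genes, 5 rose and 0 fell (median 0.27), among them H2-Q7 at 11.5, 11.9 and 3.30 CPM against 0.773 to 1.06 CPM (3.22, SE 0.59, edgeR adjusted p = 0.00506). The interferon list had 6 rises and 1 fall of 45 (median 0.80), with Oas1a, a sensor of viral RNA, at 1.56 and Ifit2 at 2.07, and Ifit3 at -3.36. The interferon rises numbered 11 without AIN_VdrKO 1, 2 without AIN_VdrKO 2, 3 without AIN_VdrKO 3, NWD1VitD 1 or NWD1VitD 2, and 0 without NWD1VitD 3, and 1 class I gene passed without AIN_VdrKO 2 or any NWD1VitD library. H2 genes are near copies of each other.

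Of the Paneth cell genes, 5 alpha-defensins fell and no other member passed. Of 23 tested Paneth markers, 5 fell, 0 rose and 9 had a positive fold change (median -0.64). Defa21 was at 0.0404, 0.609 and 0.0853 CPM in AIN_VdrKO and at 107, 1182 and 4337 CPM in NWD1VitD. It was also below every library of the 5 other groups, and the fold change was -13.16 (SE 1.54, edgeR adjusted p = 0.000139). Defa20 showed the same placement, at 1.98, 3.83 and 1.02 CPM against 224, 1725 and 4185 CPM (-9.74, SE 1.21, edgeR adjusted p = 0.000214). Defa22 (-8.94), Defa3 (-5.43) and Defa26 (-3.55) were the others. Lyz1 (1.32, edgeR adjusted p = 0.235), Mmp7 (0.24, edgeR adjusted p = 0.8) and Ang4 (0.98, edgeR adjusted p = 0.317), the lysozyme, the protease and the ribonuclease of Paneth cells, did not pass. Defa23 had the highest fold change of the list and did not pass either, at 3.92, 0.392 and 1.3 CPM against 0, 0.281 and 0.044 CPM (4.42, SE 1.87, edgeR adjusted p = 0.136). The falls numbered 3 without AIN_VdrKO 3 or NWD1VitD 3, where Defa3 did not pass. Summed over the Paneth list, levels were 21140, 38990 and 9167 CPM in AIN_VdrKO and 18450, 47200 and 87550 CPM in NWD1VitD, which overlap. Alpha-defensins differ by few bases and by gene copy number between mouse strains, so reads may be split or lost among them.

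Several genes set AIN_VdrKO apart from every other group. Of the 689 genes higher in AIN_VdrKO, 76 lay above all 18 libraries of the other groups in all 3 AIN_VdrKO libraries, and 71 of the 618 lower genes lay below them. Over all tested genes this placement occurred in 1.4% (above) and 0.829% (below). For NWD1VitD, 6 of the 618 lay above all 18 others and 16 of the 689 below, against 0.106% and 0.212% of all tested genes. Since the calls use the same libraries, these shares are descriptions only. Insl6, an insulin-like peptide best known from the testis, was at 1.17, 0.827 and 0.91 CPM against 48.3, 56.7 and 57.1 CPM (-5.83, SE 0.44, edgeR adjusted p = 8.02e-07), the smallest p of all tested genes. Wdfy1, an endosomal FYVE domain protein, was at 36.1, 65.9 and 47.4 CPM against 4.81 to 7.74 CPM (3.03, SE 0.39, edgeR adjusted p = 0.000348). Both passed under every alternative. Rps4y2, a ribosomal protein gene copy, was at 20.6, 13.7 and 17.3 CPM against 40.3, 64.6 and 61.8 CPM (-1.73, SE 0.26, edgeR adjusted p = 0.00119), below all 18 others. Gpx2, the glutathione peroxidase of the gut epithelium, was above all 18 others at 2351, 933 and 1798 CPM against 297 to 557 CPM (1.94, SE 0.39, edgeR adjusted p = 0.00815).

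Gpx2 belongs to the glutathione and NRF2 list, in which 5 of 32 tested members rose and 1 fell (median -0.02). Slc7a11, the cystine importer for glutathione synthesis, rose by 3.51 and Gsr, glutathione reductase, by 1.40, both also above all 18 others. The rises numbered 3 without AIN_VdrKO 2, 1 without AIN_VdrKO 3 or NWD1VitD 2, and 0 without NWD1VitD 3. Tmem173, which encodes the DNA sensing adaptor STING, was at 7.15, 8.57 and 26.5 CPM against 1.69 to 2.02 CPM (2.93, SE 0.51, edgeR adjusted p = 0.00341). Lgmn, a lysosomal protease, was at 24.1, 46.1 and 94.2 CPM against 6.71 to 11.1 CPM (2.66, SE 0.40, edgeR adjusted p = 0.00108). Wfdc10, a whey acidic protein family member, fell to 5.94, 0 and 0.235 CPM against 46.9, 50.3 and 85.5 CPM (-4.85, SE 1.13, edgeR adjusted p = 0.0174). It did not pass without AIN_VdrKO 3, without NWD1VitD 3 or with the 6 libraries fitted alone.

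Some markers of each secretory cell type fell in AIN_VdrKO. All 31 tested enteroendocrine genes had a negative fold change (median -1.35). Of these 7 passed and none rose, beside 4.29% higher and 3.85% lower over all tested genes. In 26 of the 31 the libraries did not overlap, beside 31.1% of all tested genes. Ghrl, which encodes ghrelin, was at 109, 24.6 and 14.4 CPM in AIN_VdrKO and at 1074, 1192 and 735 CPM in NWD1VitD (log2 fold change -4.24, SE 0.61, edgeR adjusted p = 0.000888). The hormone genes Sct (secretin, -3.42), Pyy (-3.42), Sst (somatostatin, -2.53), Cck (-2.32) and Gcg (-1.66) and the transcription factor Isl1 (-1.74) also fell. In the goblet list 6 of 22 fell and 2 rose (median -0.97). Tff3, which protects the mucosa with mucin, was at 4360, 3450 and 1372 CPM against 19940, 37590 and 43760 CPM (-3.42, SE 0.58, edgeR adjusted p = 0.00313), and Spink4 (-2.96) and Guca2a (-3.04) moved alike. The goblet genes that rose were Retnlb and Clca1 (1.57). Of 25 tuft cell genes 3 fell and 0 rose (median -1.13), Gng13 the furthest (-3.56, edgeR adjusted p = 0.00715). Enteroendocrine falls numbered 11 without AIN_VdrKO 1, 4 without AIN_VdrKO 2 and 3 without AIN_VdrKO 3, NWD1VitD 2 or NWD1VitD 3. Goblet falls numbered 11 without NWD1VitD 1 and 1 without AIN_VdrKO 3 or NWD1VitD 3, and tuft falls 5 without AIN_VdrKO 1 or NWD1VitD 1, 1 without AIN_VdrKO 2, AIN_VdrKO 3 or NWD1VitD 2, and 0 without NWD1VitD 3. On log2(TPM + 1), with its upward shift of all genes, the medians were 0.03 for goblet, -0.23 for enteroendocrine and -0.01 for tuft genes.

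Few absorptive and stem cell genes passed the test. Of 40 enterocyte genes 3 fell and 0 rose (median -0.50): the fatty acid binding proteins Fabp1 (-2.30) and Fabp2 (-2.23) and the brush border protease Mep1a (-2.21). Of 28 tested Lgr5 stem cell markers 3 rose and 0 fell (median 0.63), namely Phgdh (2.23), which starts serine synthesis, Aqp4 (1.81), a water channel, and Lrig1 (1.33), a brake on growth factor receptors. Lgr5 itself was at 33.3, 44.9 and 24 CPM against 27.1, 13.8 and 18.9 CPM and did not pass (0.69, SE 0.50, edgeR adjusted p = 0.385). Myc (1.73) and Cd44 (1.40) rose among 26 Wnt targets, Notch1 (1.12) among 22 Notch genes and Tgif1 (1.11) among 21 BMP and TGF-beta genes, with 0 falls in those 3 lists by edgeR. The share of members called was 7.5% for enterocyte, 10.7% for stem cell, 7.69% for Wnt, 4.55% for Notch and 4.76% for BMP genes. Over all tested genes 4.29% were higher and 3.85% lower. None of the enterocyte, stem cell, Wnt, Notch and BMP genes named as changed passed by edgeR without AIN_VdrKO 3 or without NWD1VitD 3. Without NWD1VitD 2 there was 1 enterocyte fall, 1 stem cell rise and no call in the other 3 lists, and without AIN_VdrKO 1 or NWD1VitD 1 the stem cell rises numbered 5. Ppargc1a, a coactivator of mitochondrial genes, overlapped between the groups (-0.13, SE 0.54, edgeR adjusted p = 0.897).

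Some respiratory chain and ribosomal protein transcripts fell and some cell division genes rose. Of 88 tested oxidative phosphorylation genes 37 fell and 0 rose (median -0.98). Ndufc1, a subunit of complex I, was at 662, 256 and 172 CPM in AIN_VdrKO and at 2093, 1952 and 1570 CPM in NWD1VitD (log2 fold change -2.34, SE 0.46, edgeR adjusted p = 0.0076). Cox7a1 of cytochrome oxidase (-3.72) and Atp5k of the ATP synthase (-2.73) fell furthest. Of 84 cytosolic ribosomal protein genes 11 fell and 0 rose (median -0.98), with Rps27 at 908, 379 and 269 CPM against 2443, 1656 and 1908 CPM (-1.99, SE 0.52, edgeR adjusted p = 0.0275). In both genes AIN_VdrKO 1, the library nearest to NWD1VitD on the first principal component, was the highest of its group.

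Among 48 genes of the G2 and M phases 15 rose and 0 fell (median 0.98), and among 40 of the S phase 9 rose and 0 fell (median 0.92). Ncapg, a condensin subunit, was at 35, 47.6 and 50.5 CPM against 13.1, 7.83 and 10.9 CPM (2.01, SE 0.32, edgeR adjusted p = 0.00186), and Mcm4 of the replicative helicase at 45, 60.5 and 99.4 CPM against 32.9, 13.8 and 17.2 CPM (1.58, SE 0.38, edgeR adjusted p = 0.0192). Of 51 DNA repair genes 13 rose and 0 fell (median 0.80), Fanci (2.09) and Fancd2 (1.79) of the Fanconi pathway among them. Each of these counts depended on which libraries were kept, as did the counts over all genes. Oxidative phosphorylation falls numbered 11 without AIN_VdrKO 2, 3 without AIN_VdrKO 3, and 19, 15 and 12 without NWD1VitD 1, 2 and 3. Ribosomal falls numbered 54 without AIN_VdrKO 1 and 1 or 2 without any other library. Without AIN_VdrKO 3, NWD1VitD 2 or NWD1VitD 3 there were at most 2 G2 and M phase, 0 S phase and 1 repair rises by edgeR, and without NWD1VitD 1 the S phase rises numbered 20. With the mitochondrial ribosomal RNA share as a covariate the oxidative phosphorylation falls numbered 21 (median -0.38) and the ribosomal falls 2 (median -0.10), while the G2 and M phase rises numbered 16 (median 0.97), the S phase rises 16 (median 1.11) and the repair rises 3 (median 0.55). Mcm4 did not pass with that covariate, and over all genes 674 were higher and 556 lower with it, 591 of them among the 1307. On log2(TPM + 1), 32 oxidative phosphorylation genes were lower and 26 higher.

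**Figure D4:**
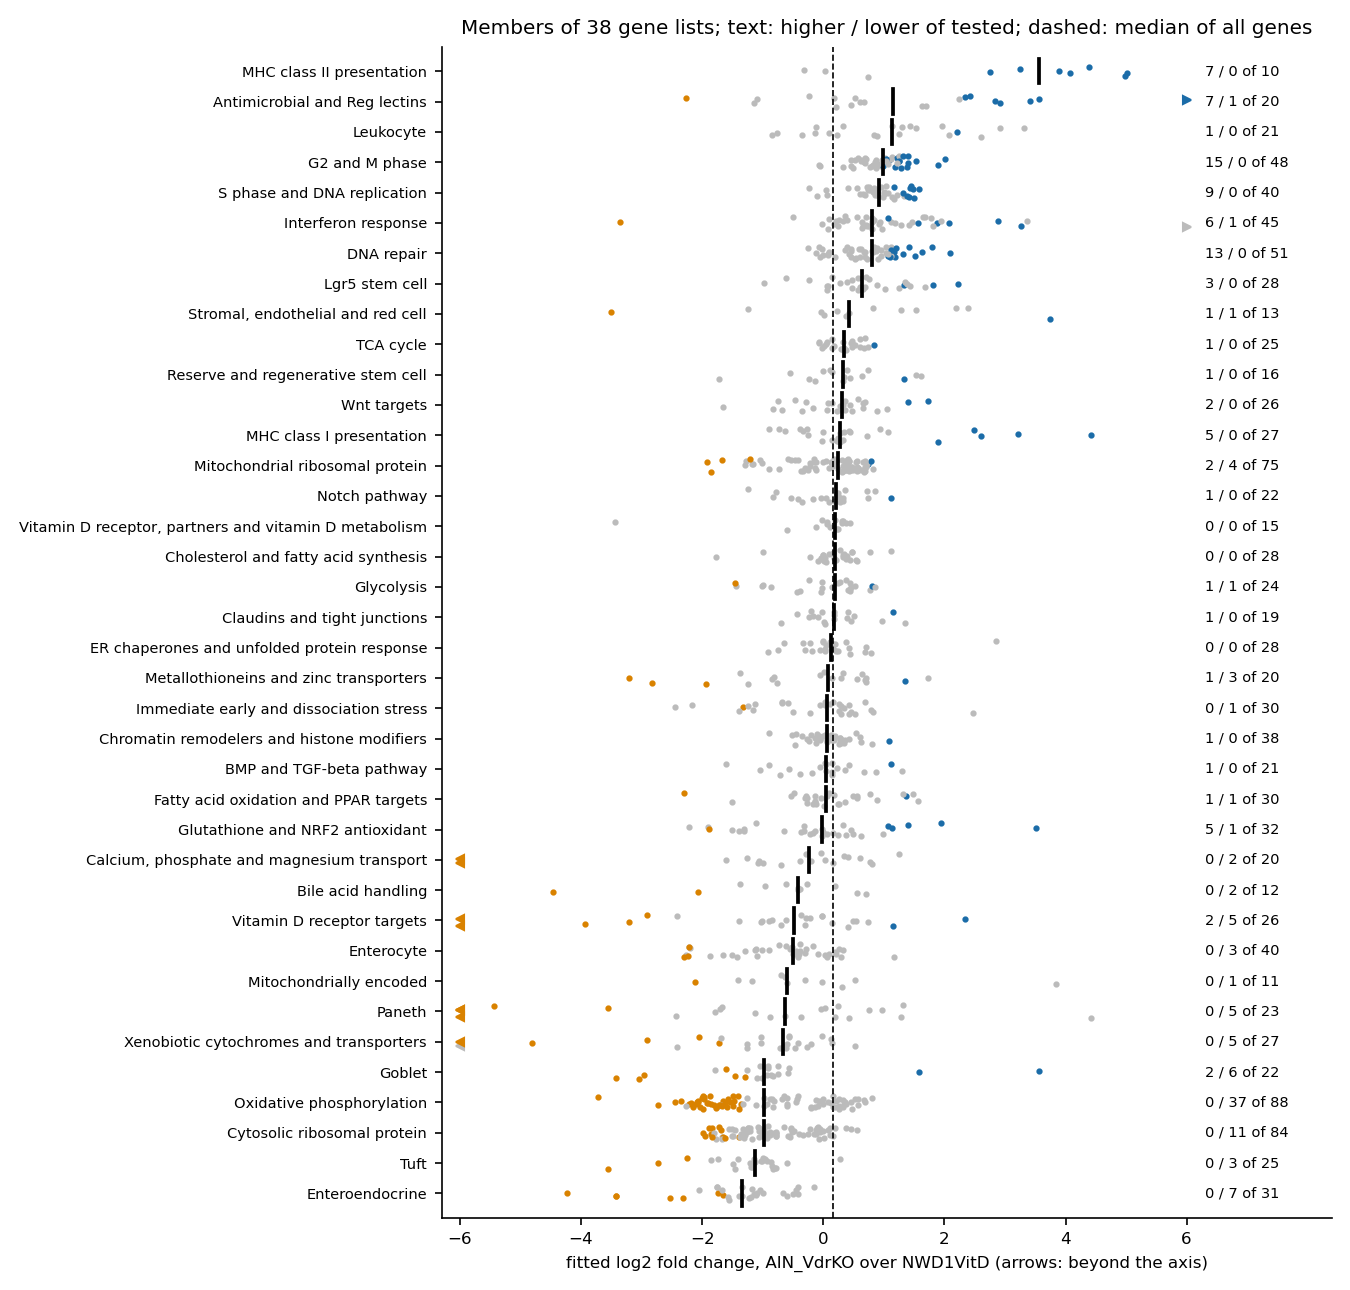
Fitted log2 fold changes of the tested members of 38 gene lists (1 point per gene; blue and orange passed the test, black bars are list medians, the dashed line is the median over all genes, and the numbers count higher and lower calls). MHC class II lies highest with a median of 3.56 and the enteroendocrine list lowest with -1.35.

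The remaining lists are given by their counts, beside 8.14% of all tested genes called, 4.29% higher and 3.85% lower. Their called shares ran from 0% to 15.4%, the latter for the stromal, endothelial and red cell markers. The counts were 0 of 28 for cholesterol and fatty acid synthesis, 0 of 28 for the unfolded protein response (both by edgeR), 1 rise of 25 for the TCA cycle, 1 rise and 1 fall of 24 for glycolysis and of 30 for fatty acid oxidation, and 2 rises and 4 falls of 75 for mitochondrial ribosomal proteins. Among 19 claudin and tight junction genes Cldn2 alone rose, and among 16 reserve stem cell genes Lrig1 alone did. Among 11 mitochondrially encoded genes 1 fell, mt-Nd3 (-2.12). Of 38 chromatin genes 1 rose, Hdac3 (1.08), and of 30 immediate early genes, a sign of stress in dissociated tissue, 1 fell, Btg2 (-1.32). Among 13 tested stromal, endothelial and red cell markers 1 rose, Acta2 (3.75), and 1 fell, S100b (-3.51). Of these markers 10 had a positive and 3 a negative fold change, and Acta2 in AIN_VdrKO lay above all 18 others. Both called markers were low. Acta2 had 26, 17 and 183 counts in AIN_VdrKO against 2, 2 and 1 in NWD1VitD, and S100b 2, 2 and 7 against 22, 12 and 23. Neither passed without AIN_VdrKO 3, and Acta2 did not pass without any 1 NWD1VitD library. The summed level of the list was 25.2, 25.2 and 18.4 CPM in AIN_VdrKO and 32.6, 41.0 and 24.6 CPM in NWD1VitD, which overlap. Of the 24 markers of this list in the count table, 2 had 0 counts in all 6 libraries, Cdh5 and Pdgfra. Every other marker had counts in at least 1 of them.

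The same genes in the other groups placed each difference among the diets. Between AIN_VdrKO and AIN 2011 genes passed (12.5%), between AIN_VdrKO and AINlowVitD 492 (3.07%), and between AIN_VdrKO and NWD1Ca 135 (0.841%). It was 3052 (19%) between AIN_VdrKO and NWD1, 6504 (40.5%) between NWD1VitD and NWD1, and 5783 (36%) between NWD1VitD and AIN. Between NWD1VitD and AINlowVitD no gene passed by edgeR (0%), where 467 had an unadjusted p under 0.05 and DESeq2 called 8. Between NWD1VitD and NWD1Ca it was also 0%, where 372 had such a p and DESeq2 called 3. These comparisons share libraries with the main one, so each is given only by its own values. The antimicrobial list had medians of 1.58 against AIN, 1.58 against AINlowVitD and 2.39 against NWD1Ca in AIN_VdrKO, and MHC class II had 2.41, 3.21 and 3.65. The oxidative phosphorylation list had a median of 0.11 in AIN_VdrKO against AIN and of -1.47 against AINlowVitD, and of 0.85 against NWD1, where 18 members were higher and 0 lower by edgeR. In NWD1VitD its medians were 1.38 against AIN and 2.14 against NWD1, and -0.33 against AINlowVitD. Against AIN and AINlowVitD, the G2 and M phase list had medians of -0.34 and 0.65 in AIN_VdrKO and -1.25 and -0.29 in NWD1VitD. The enteroendocrine list had 0.27 and -0.49 in AIN_VdrKO and 1.64 and 0.76 in NWD1VitD. Ghrl, for example, averaged 90.3 CPM in AIN and 624 CPM in AINlowVitD, beside 49.5 CPM in AIN_VdrKO.

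**Figure D5:**
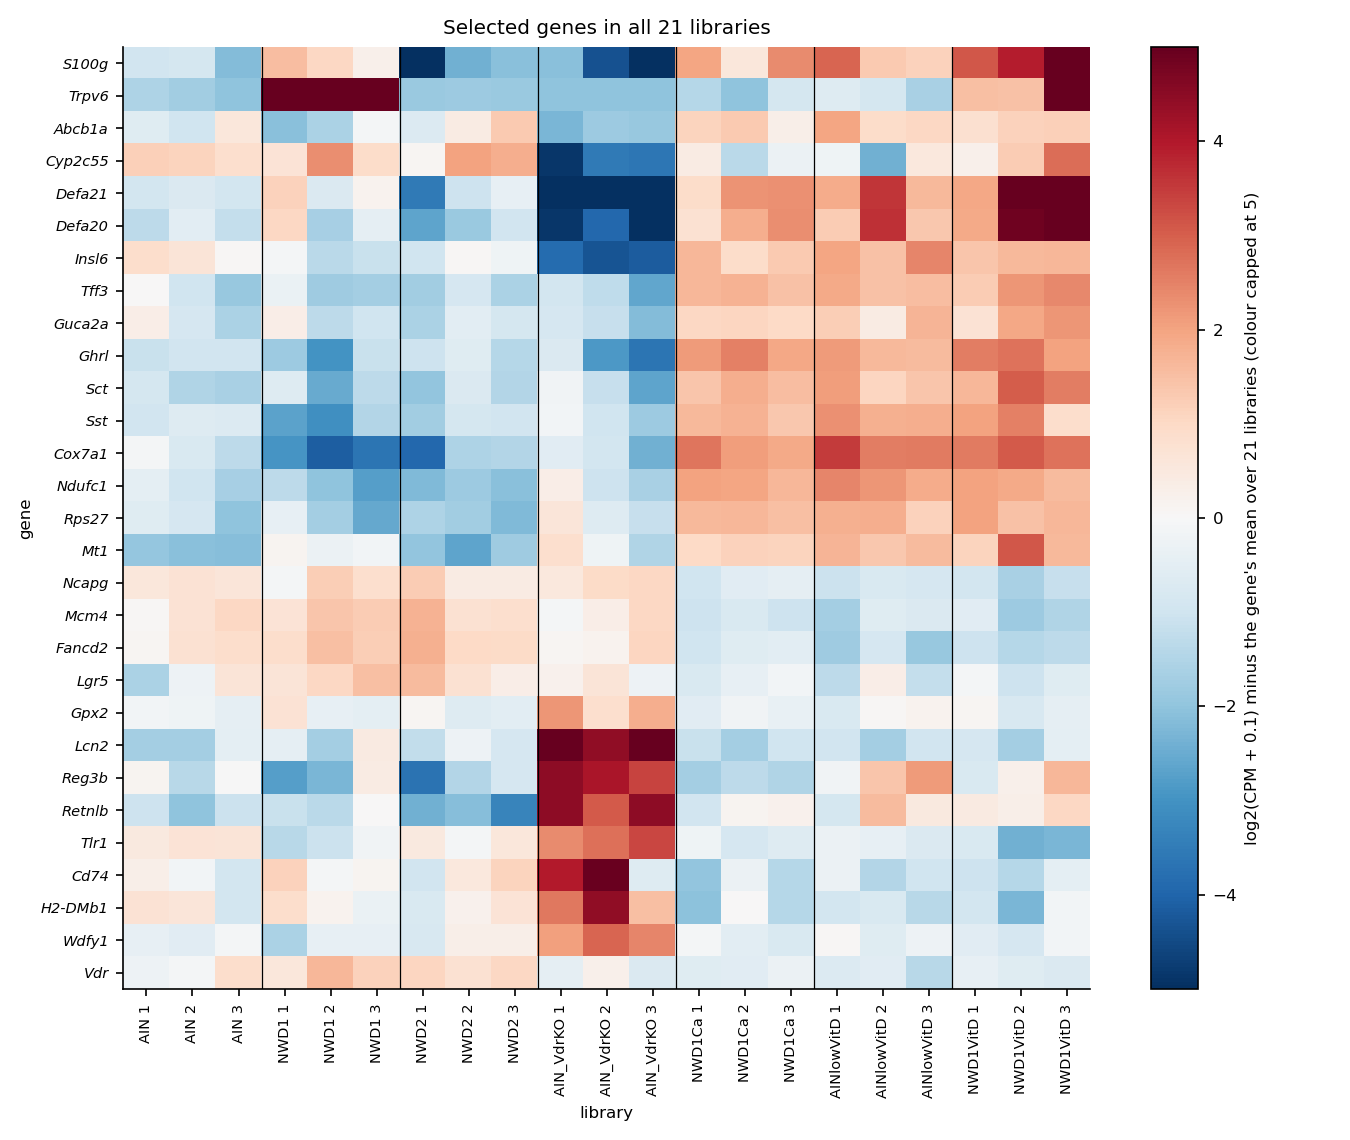
Log2(CPM + 0.1) of 29 genes in all 21 libraries, as the difference from each gene's mean (rows: genes, columns: libraries by group, colours capped at 5). Lcn2, Reg3b, Retnlb, Tlr1 and Wdfy1 are higher, and Insl6 and Defa21 lower, in the AIN_VdrKO columns than in all others, whereas Tff3, Ghrl, Cox7a1 and Ndufc1 are higher in the columns of NWD1Ca, AINlowVitD and NWD1VitD than in all others.

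Genes beside Vdr on chromosome 15 were looked at because DNA flanking a targeted allele can come from another strain. Of the 40 nearest tested genes, 20 on each side in the RefSeq order, 3 rose (Pus7l, Tmem106c and Senp1) and 2 fell (Tmem117 and Rpap3). Their median was -0.03, against 0.16 over all tested genes, of which 4.29% were higher and 3.85% lower. Tmem117 fell by 2.61 on the log2 scale (edgeR adjusted p = 0.000107), and the edgeR adjusted p of the other called neighbours ran from 0.0173 to 0.0462. The part of flanking DNA in these values was not tested.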

How the data were processed

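RNA of sorted Lgr5-EGFP cells was made into paired-end libraries with SMART-Seq v4 and Nextera XT, per the labels' protocols, a preparation that does not mark strand, so antisense and overlapping genes cannot be told apart. The authors deposited raw read counts per gene, and STAR 2.4.2a, HTSeq 0.6.1, edgeR and mm9 are named in the submitters' processing notes. The authors also deposited TPM values, which are the counts over a fixed gene length, rescaled (checked on the deposited values), and served only as an alternative.

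Genes passing filterByExpr were fitted over all 21 libraries with a term per group and sex, using TMM scaling in edgeR 4.0.16 (R 4.3.3) and its quasi-likelihood test, adjusted over 16050 genes by Benjamini-Hochberg at 0.05. limma 3.58.1 and DESeq2 1.42.0 were alternatives. On simulated counts of this contrast, the test called 4.69% of genes changed by a log2 value of 1, 58.5% at 2 and 76.1% at 3. Spike-ins were fitted separately. Groups came from the labels. Libraries held no molecular identifiers, so floors of 3 counts cover counting error only.

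The groups, lists and named genes were chosen with earlier results of these data known. Named were the 10 largest rises and falls at a mean log2 CPM of at least 2 with no overlap, up to 4 called genes per list by p, and Vdr, Cyp24a1, Trpv6, S100g, Atp2b1, Lgr5, Ppargc1a, Mt1 and Mt2. Other list members, such as Ptprc, Lyz1, Mmp7 and Ang4, were named after their values were seen.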

Additional observations from a re-analysis of the deposited data

How the results depend on the processing

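Against 689 higher and 618 lower genes, DESeq2 gave 855 and 1229, upper quartile scaling 299 and 575, no filter on low counts 1201 and 1076, the 6 libraries alone 6 and 19, the 12 libraries of both groups with NWD1Ca and AINlowVitD 377 and 766, no sex term 1146 and 848, and a test against a 1.5-fold change 69 and 185. limma gave 6381 and 357 on log2(TPM + 1), 6491 and 344 with a mean TPM of at least 1, and 7100 and 382 on log2(TPM + 0.1). Leaving out 1 library gave 43 to 1781 higher and 123 to 1245 lower genes. With AIN_VdrKO 1 as the lone library of its group, an alternative chosen after seeing the data that assumes it to vary like the others, 30 and 20 passed. Replicate numbers were shared between the groups but their deviations correlated at 0.155, 0.233 and -0.0507, so the numbers were not taken as pairs, and the replicate block gave 665 and 831. On the TPM scales Atp2b1 was at 0.25, 0.25 and 0.26 and Ppargc1a at 0.58, 0.58 and 0.64, opposite in sign to the count fit. Leaving out 1 library moved Vdr between -0.018 and 0.50 and Ppargc1a between -0.81 and 0.13. The cause of these differences was not tested. Tlr1, Wdfy1, Defa21 and Insl6 passed in 21 of 21 alternatives and Lcn2 in 20 of 20. With 3 libraries a group and simulated recovery of 4.69% at a log2 change of 1, changes of that size were mostly not detectable.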
